A study of Homo sapiens with 16 samples.

Results

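The comparison described here set siFOXA1.1 directly against siFOXA1.2, a pair of small interfering RNAs (siRNAs) that both target the mRNA of FOXA1, in the bladder cancer lines RT112 and SCaBER in 1 fit. Its members were chosen by the labels alone and are 8 of the 16 libraries of the series, 4 with siFOXA1.1 and 4 with siFOXA1.2, with 2 of each in each line; no control library entered the contrast. The study knocked FOXA1 down for a short time in RT112, its luminal papillary (LumP) model, and in SCaBER, its basal/squamous (Ba/Sq) model, and read the transcriptome by 3′ mRNA sequencing. Within a line the siRNA groups shared the line, the reverse transfection with Lipofectamine RNAiMAX and the medium, and the labels give a dose of 10 nM for every siRNA. RT112 was grown in RPMI and SCaBER in DMEM, both with foetal bovine serum, so line and medium cannot be told apart. The other 8 libraries carried siControl.1 or siControl.2, which target no human gene by design, and are used only as a reference level and for a comparison of the control siRNAs with each other. The question is in which processes siRNAs against the same target differ in both lines. The labels number an experiment batch for each library, 1 or 2, and nothing says more about separate cultures, so the p-values measure the spread between these libraries only.

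FOXA1 is a pioneer transcription factor, a protein that binds its sites in closed chromatin and helps to open it, and in the bladder it belongs to the network that keeps urothelial cells luminal. An siRNA is a short RNA duplex whose guide strand is loaded into an Argonaute protein and directs it to matching mRNA, which is cut; a guide can also repress other mRNAs through its seed. Cells carry receptors that detect foreign double-stranded RNA. Those receptors start the interferon pathway, in which secreted interferons signal through JAK kinases and STAT and IRF factors to a large set of antiviral effector genes. Cell proliferation is read in RNA through genes that E2F factors switch on for DNA replication and through genes that peak in G2 and mitosis. The groups below follow these roles, and after them growth, metabolism, identity, adhesion and signalling.

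The 8 libraries held 5280402 to 7322004 counts in all, and 3 counts, the floor used below for genes with no counts, correspond to 0.410 to 0.568 CPM, the unit of counts scaled to a common library total. The mitochondrially encoded genes took 27.0 ± 1.77% (SD, n = 2) of counts with siFOXA1.1 and 20.01 ± 0.511% (SD, n = 2) with siFOXA1.2 in RT112, and 11.9 ± 0.0172% against 11.5 ± 0.861% in SCaBER; the mean difference of 3.69 percentage points had p = 0.167 in a 2-sided exact permutation test within lines, where the smallest p that the design allows is 0.0556. Replicates differed by far more than counting error, with a chi-square per degree of freedom of 10.4 to 35.2, the highest in the SCaBER siFOXA1.1 pair. Luminal marker genes summed to 395 to 1121 CPM in RT112 and 27.8 to 60.1 CPM in SCaBER, and basal markers to 256 to 472 CPM in RT112 and 2120.3 to 3645 CPM in SCaBER, as the line names say. Of 10 leukocyte markers 5 had no count in any library, among them PTPRC, the common leukocyte antigen, and the T and B cell markers CD3E, CD2 and MS4A1. The other 5, CD14, LYZ, CD68, CSF1R and ITGAM, each reached at most 4.69 CPM. The 10 summed to 1.18 to 7.91 CPM with siFOXA1.1, 0.137 to 2.77 with siFOXA1.2 and 0 to 0.263 in the controls of RT112. For SCaBER the sums were 4.92 to 7.95, 4.47 to 6.97 and 0.162 to 4.21 CPM, and their part in the results was not tested.

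FOXA1 itself was lowest with siFOXA1.1. In RT112 it stood at 1.32 and 3.24 CPM with siFOXA1.1 and 9.18 and 16 CPM with siFOXA1.2, and the 4 control libraries lay at 18.2 to 35 CPM, so both siRNAs lay below every control and siFOXA1.1 below siFOXA1.2. In SCaBER the level was near the floor throughout, at 0 and 0.434 CPM (0 and 3 counts) with siFOXA1.1, 0 and 0.951 CPM (0 and 6 counts) with siFOXA1.2 and 0.499 to 2.43 CPM in the controls, and the siRNAs could not be separated at this depth. The mean difference within lines was -5.28 CPM (-10.3 in RT112 and -0.258 in SCaBER; 2-sided exact permutation test, p = 0.167), and the fit across all genes gave a log2 difference of -1.82 ± 1.02 (adjusted p = 0.291). FOXA2, a relative of FOXA1, did not pass the test over both lines (log2 difference -0.03 ± 0.81, adjusted p = 0.989), but its lines were unlike. In RT112 it stood at 9.23 and 5.60 against 3.93 and 2.19 CPM, with controls at 2.87 to 3.55 CPM. In SCaBER it stood at 2.46 and 0.868 against 2.78 and 7.13 CPM, with controls at 1.83 to 8.39 CPM. FOXA3 had no count in any of the 16 libraries. The residual FOXA1 level and the mitochondrial share thus moved with the siRNA in RT112, and their part in the differences below was not tested.

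**Figure D1:**
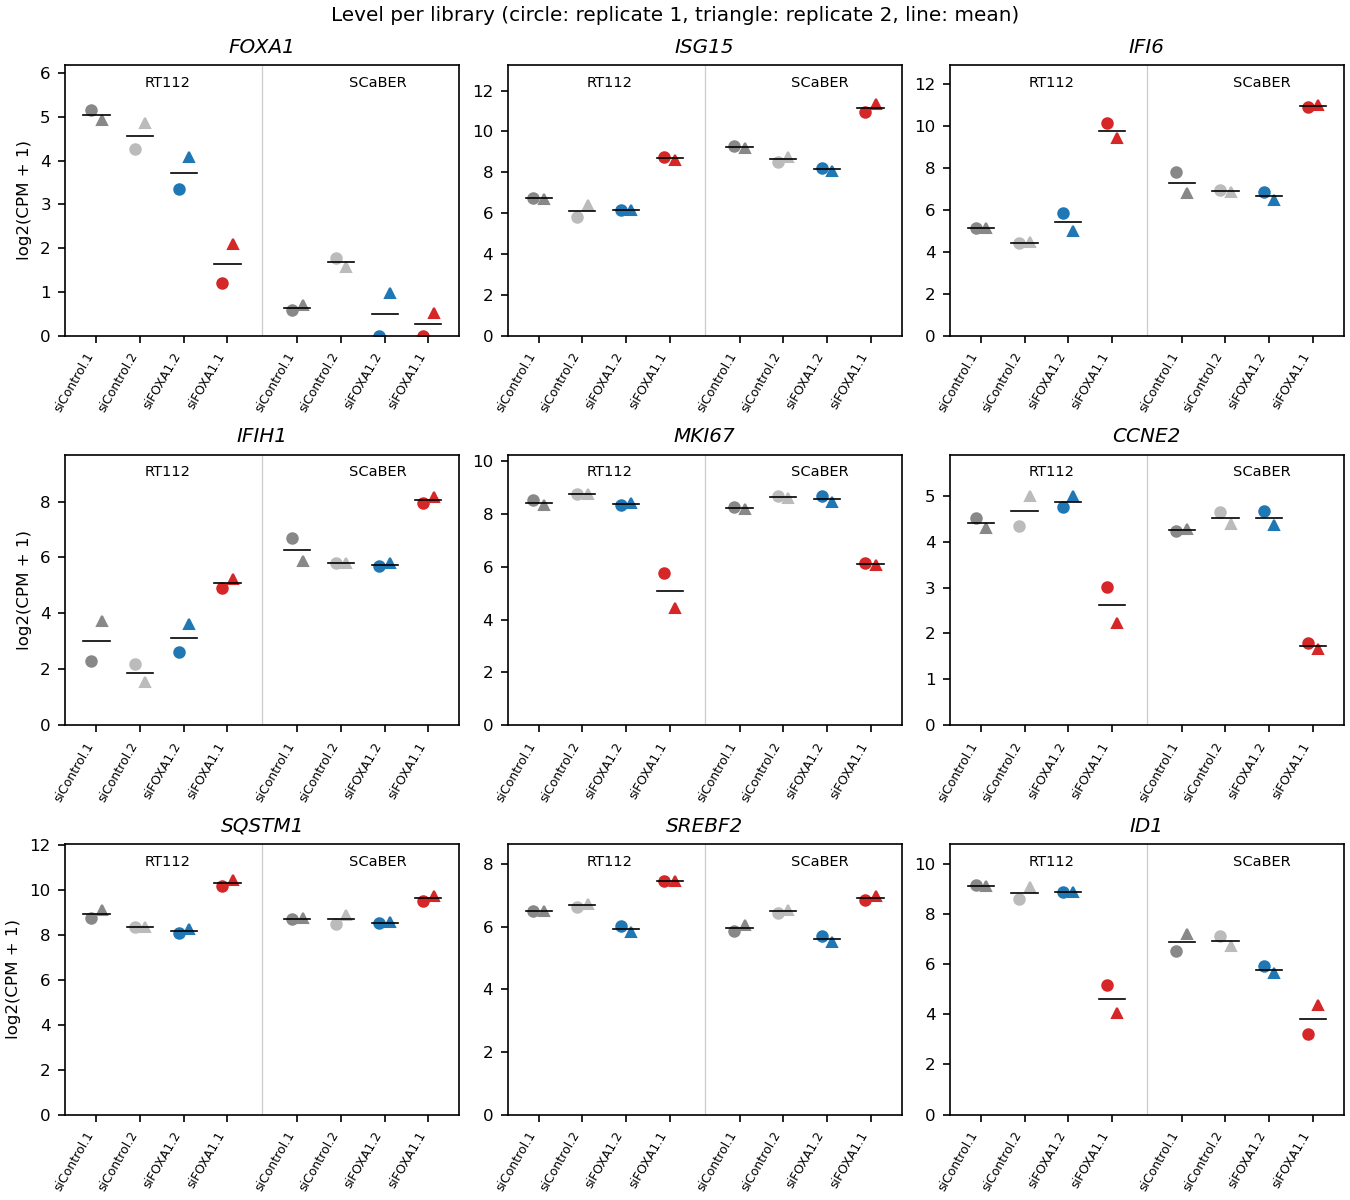
Level of 9 genes in each of the 16 libraries, as log2(CPM + 1) on the vertical axis, by siRNA and line; circles are batch 1, triangles batch 2, and lines are means of 2. FOXA1 lies lowest with siFOXA1.1 in RT112; ISG15, IFI6, IFIH1, SQSTM1 and SREBF2 lie higher and MKI67, CCNE2 and ID1 lower with siFOXA1.1 than with siFOXA1.2 in both lines.

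Of 14051 genes tested with the line as a covariate, 1492 (10.6%) differed between the siRNAs, 735 (5.23%) higher and 757 (5.39%) lower with siFOXA1.1, and 3586 (25.5%) had an unadjusted p under 0.05. Every adjusted p below is from edgeR's quasi-likelihood test with Benjamini-Hochberg adjustment over all genes tested, a call is an adjusted p under 0.05, and a log2 difference is siFOXA1.1 minus siFOXA1.2, printed with its standard error. A difference above 1 was found in 399 called genes and one below -1 in 520. The median over all genes was 0 to 2 decimals, whereas a fit of the deposited TPM values placed it at -0.12 and made 29.04% of its calls higher, against 49.3% here. The siFOXA1.1 and siFOXA1.2 libraries did not overlap in either line, in 1 direction, in 3003 genes (21.4%), 1238 higher (8.81%) and 1765 lower (12.6%). Of these, 1378 were called (9.81% of those tested), 652 higher (4.64%) and 726 lower (5.17%). Most genes named from the lists below were chosen from these called genes that did not overlap. For them a lack of overlap restates the choice and is no separate result. The control siRNAs, set against each other in the same way, differed in 113 of 14036 genes (0.805%; 62 higher with siControl.1, 0.442%, and 51 lower, 0.363%), 32 of which were also called between the FOXA1 siRNAs, and this count was 44 to 186 without 1 library.

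RT112 alone gave 1698 calls (12.1%), 841 higher (5.99%) and 857 lower (6.1%), and SCaBER alone 432 (3.07%), 208 higher (1.48%) and 224 lower (1.59%). The SCaBER count rested on single libraries, since it was 1048 without siFOXA1.1 replicate 1, 51 without siFOXA1.2 replicate 1 and 85 without siFOXA1.2 replicate 2, while the RT112 count was 662 to 991 without any 1 of its own libraries and 2580.0 and 2586 without SCaBER siFOXA1.1 replicate 1 and 2, which share its estimate of the spread. The count for both lines was 799 to 920 without any 1 RT112 library. Genes called in both lines numbered 279 (1.99%). Of these, 273 went in 1 direction (1.94%), 125 higher (0.89%) and 148 lower (1.05%), and 6 in opposite directions (0.0427%). The siFOXA1.1 libraries lay above all 4 control libraries in both lines for 738 genes (5.25%) and below them for 1156 (8.23%), and the siFOXA1.2 libraries for 143 (1.02%) and 168 (1.2%).

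**Figure D2:**
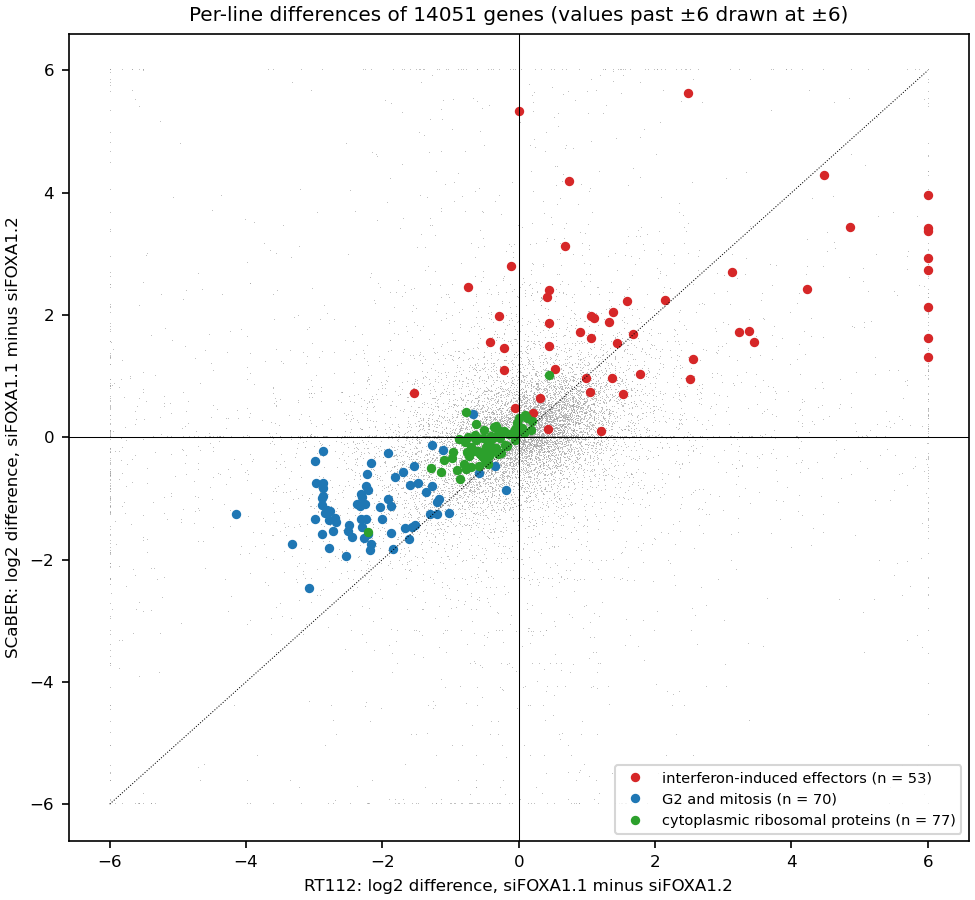
Log2 difference of siFOXA1.1 from siFOXA1.2, with RT112 (horizontal) and SCaBER (vertical), for the 14051 genes tested, with values past 6 drawn at 6; interferon-induced effectors are red (53), G2 and mitosis genes blue (70) and cytoplasmic ribosomal proteins green (77). Of the effectors 44 were positive and none negative in both lines, and 69 of the G2 and mitosis genes were negative in both.

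Of the lists described here, the genes that interferon induces had the highest share of higher calls: of 53 interferon-induced effectors tested, of 54 listed, 35 were higher and none lower with siFOXA1.1, against 5.23% of all genes higher (at an unadjusted p under 0.05, 40 higher and 0 lower). Their median log2 difference was 1.53 (1.33 in RT112 and 1.74 in SCaBER); for batches 1 and 2 it came to 1.09 and 1.21 with RT112 alone, 1.31 and 2.02 with SCaBER alone. In 27 of the 53 the siFOXA1.1 libraries lay above every control library of their line in both lines, against 5.25% of all genes. In none did the siFOXA1.2 libraries, for which the share of all genes was only 1.02%. The control siRNAs differed in 1 of them, with a median of 0.25. The called differences ran from 0.83 to 5.15.

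The interferons themselves could hardly be read. Of 9 ligands listed, IFNA1, IFNA2, IFNG and IFNL3 had no count in any library and IFNB1 at most 1, IFNK and IFNL2 at most 2 and IFNE at most 4 counts. Only IFNL1, a type III interferon, passed the filter on low counts, at 2.78 and 0 against 0 and 0 CPM in RT112 and 5.11 and 10.8 against 0 and 2.54 CPM in SCaBER. For IFNL1 the log2 difference was 3.59 ± 1.51 (adjusted p = 0.152). None of 7 receptors and JAK kinases tested was called by edgeR, against 1 at an unadjusted p under 0.05 and 1 by DESeq2. IFNAR1, a chain of the type I interferon receptor, stood at 135 and 133 against 147 and 168 CPM in RT112 and 77.5 and 77.8 against 75 and 62.9 CPM in SCaBER (log2 difference 0.04 ± 0.16, adjusted p = 0.918), and TYK2, a kinase bound to it, at 55.5 and 51.4 against 38.2 and 31.8 CPM in RT112 and 38.8 and 49.7 against 31.3 and 30.7 CPM in SCaBER. For TYK2 the log2 difference was 0.63 ± 0.21 (adjusted p = 0.0695).

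Of 8 transcription factors of the pathway tested, 2 were higher and 1 lower. STAT2, which forms the ISGF3 complex on interferon-stimulated genes, stood at 39 and 42.3 against 19.5 and 9.56 CPM in RT112 and 80.1 and 153 against 22.5 and 32.6 CPM in SCaBER, with controls at 10.8 to 18.1 and 14.4 to 33.9 CPM. For STAT2 the log2 difference was 1.86 ± 0.29 (adjusted p = 0.00143). Its partner IRF9 stood at 16.3 and 23.9 against 0.437 and 5.05 CPM in RT112 and 13.8 and 12.3 against 5.55 and 8.87 CPM in SCaBER and missed the threshold (log2 difference 1.91 ± 0.65, adjusted p = 0.0806). IRF1 did not pass the test (log2 difference 0.09 ± 0.17, adjusted p = 0.812). The siRNA groups did not overlap in either line for STAT2.

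Among 9 feedback genes 3 were higher and none lower. Their median was 0.61, and between the control siRNAs it was 0.44 with none called. ISG15, a ubiquitin-like protein that is joined to other proteins, stood at 422 and 392 against 71.1 and 70.7 CPM in RT112 and 1970.1 and 2583 against 296 and 265 CPM in SCaBER, a fold of 7.18 (log2 difference 2.84 ± 0.15, adjusted p = 4.52e-07), and the controls at 55.1 to 106 CPM in RT112 and 365 to 629 CPM in SCaBER. Its ligase HERC5 stood at 5.71 and 11.9 against 1.75 and 2.05 CPM in RT112 and 208 and 291 against 99.3 and 71.9 CPM in SCaBER. For HERC5 the log2 difference was 1.84 ± 0.28 (adjusted p = 0.00126). USP18, which removes ISG15 and dampens the receptor, stood at 14.6 and 24.3 against 11.1 and 3.28 CPM in RT112 and 158 and 91.5 against 8.64 and 19.8 CPM in SCaBER. For USP18 the log2 difference was 2.41 ± 0.46 (adjusted p = 0.00506). All 3 were higher in every siFOXA1.1 library than in either siFOXA1.2 library of the line. SOCS1 (log2 difference 0.30 ± 1.16, adjusted p = 0.913) and SOCS3 (log2 difference 0.46 ± 0.57, adjusted p = 0.676), inhibitors of JAK signalling, did not pass the test.

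Sensors of double-stranded RNA were higher in 9 of 18 and lower in 1, with a median of 1.06. Of all genes 5.23% were higher and 5.39% lower. Between the control siRNAs the sensors had a median of 0.54 with 1 called, against a median of -0.00497 over all genes. IFIH1 encodes MDA5, a receptor for long duplexes, and stood at 29.1 and 36.7 against 5.10 and 11.3 CPM in RT112 and 244 and 285 against 50.7 and 54.2 CPM in SCaBER. For IFIH1 the log2 difference was 2.25 ± 0.24 (adjusted p = 0.000205). DDX58 encodes RIG-I, a receptor for duplexes with 5′ triphosphates, and stood at 27.8 and 34.3 against 7.87 and 5.74 CPM in RT112 and 154 and 146 against 75.4 and 45.3 CPM in SCaBER. For DDX58 the log2 difference was 1.78 ± 0.27 (adjusted p = 0.00118). EIF2AK2 encodes PKR, the kinase that halts translation when it binds double-stranded RNA, and stood at 237 and 299.5 against 144 and 124 CPM in RT112 and 214 and 307 against 101 and 108 CPM in SCaBER. For EIF2AK2 the log2 difference was 1.23 ± 0.17 (adjusted p = 0.000674). These 3 receptors were each higher without overlap in both lines. OAS2, a synthetase that activates RNase L, stood at 27.2 and 24.8 against 0 and 0.819 CPM in RT112 and 341 and 484 against 43.7 and 49.3 CPM in SCaBER (log2 difference 3.89 ± 0.43, adjusted p = 0.000257), and its relative OAS1 at 82.3 and 66.6 against 47.1 and 39.9 CPM in RT112 and 85.4 and 188 against 11 and 16.2 CPM in SCaBER (log2 difference 2.09 ± 0.45, adjusted p = 0.0101). The OAS1 call was lost without SCaBER siFOXA1.2 replicate 2 (adjusted p = 0.0561). As log2(CPM + 1) minus the mean of the RT112 controls, OAS1 lay at 0.28 and -0.03 with siFOXA1.1 in RT112. With siFOXA1.2 it lay there at -0.52 and -0.75, below all RT112 controls (-0.20 to 0.24). MAVS, the adaptor that RIG-I and MDA5 share, went the other way, at 83.2 and 62.9 against 166 and 191 CPM in RT112 and 111 and 124 against 158 and 182 CPM in SCaBER (log2 difference -0.84 ± 0.18, adjusted p = 0.0112), and its call was lost without RT112 siFOXA1.1 replicate 2 (adjusted p = 0.0509) or RT112 siFOXA1.2 replicate 2 (adjusted p = 0.0502). TLR3, the endosomal receptor, was near the floor in several libraries and did not pass the test (log2 difference -0.05 ± 1.15, adjusted p = 0.986).

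The most abundant effector among the strongest was IFI6, a mitochondrial and endoplasmic reticulum protein, at 1129.7 and 689 against 57.4 and 31 CPM in RT112 and 1925 and 2049 against 117 and 88.9 CPM in SCaBER with controls at 20.2 to 34.7 and 111 to 225 CPM, a fold of 20.9 (log2 difference 4.38 ± 0.23, adjusted p = 4.52e-07). IFIT1, which binds foreign RNA caps, stood at 94.3 and 119 against 0.583 and 1.502 CPM in RT112 and 265 and 496 against 33 and 38.8 CPM in SCaBER. For IFIT1 the log2 difference was 4.59 ± 0.53 (adjusted p = 0.000258). IFI44L stood at 73.8 and 83.4 against 0 and 0.137 CPM in RT112 and 219 and 342 against 19.1 and 17.3 CPM in SCaBER (log2 difference 5.15 ± 0.61, adjusted p = 0.000291), where the RT112 siFOXA1.2 pair held 0 and 1 counts. All siFOXA1.1 libraries of these 3 genes lay above the control range of their line; the siFOXA1.2 libraries lay within or below it, apart from 1 RT112 library of IFI6 above it, at 57.4 CPM. RSAD2 encodes viperin, an antiviral enzyme, and stood at 26.1 and 38.5 against 0 and 0 CPM in RT112 and 219 and 315 against 26.5 and 44 CPM in SCaBER; with no count in RT112 siFOXA1.2 it was at least 76.2-fold higher there, against a floor of 3 counts per library. MX2, a dynamin-like GTPase, stood at 59.3 and 78.2 against 18.5 and 8.47 CPM in RT112 and 136 and 187 against 3.70 and 2.85 CPM in SCaBER. For MX2 the log2 difference was 3.91 ± 0.56 (adjusted p = 0.000883). Of the effectors tested 8 had an arm at or under 3 counts, and the list's median was again 1.53 with these at their bound. The near-identical IFITM2 and IFITM3 share reads that counting could split, so their separate values are uncertain.

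The promoters of the effectors often hold a common letter pattern, called or not. The core of the interferon-stimulated response element, GAAA and GAAA set 2 bases apart (any bases) on either strand, was searched in the RefSeq windows of GRCh38.p14 from 250 bases before to 50 after each gene's start, and 1195 of 27305 genes with a window (4.38%) and 394 of 10263 tested genes matched to one (3.84%) hold it. Of 53 effectors tested 42 matched a window and 30 of these (71.4%) hold it, in 22 of 30 called (73.3%) and 8 of 12 not called (66.7%). Of the double-stranded RNA sensors 4 of 10 matched hold it (40.0%), 3 of 6 called and 1 of 4 not called. Stretches of 30 bases around a match follow, 5′ to 3′ on the strand of the gene with the match in capitals, for IFI6 (chr1:27672266-27672295, minus strand), ISG15 (chr1:1013380-1013409, plus), IFIH1 (chr2:162318686-162318715, minus) and IFI44L (chr1:78620365-78620394, plus), and for IFIT1 (chr10:89392510-89392539, plus) and RSAD2 (chr2:6877622-6877651, plus), whose match lies on the opposite strand. A match is a description of letters only.
IFI6: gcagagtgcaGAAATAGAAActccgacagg
ISG15: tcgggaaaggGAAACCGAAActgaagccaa
IFIH1: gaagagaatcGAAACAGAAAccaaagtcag
IFI44L: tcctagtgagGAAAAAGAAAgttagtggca
IFIT1: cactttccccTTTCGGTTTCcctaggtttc
RSAD2: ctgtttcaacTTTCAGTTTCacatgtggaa

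Genes by which cells talk to lymphocytes moved in part. Of 8 immune checkpoint ligands tested 3 were higher and none lower (37.5% called, against 10.6% of all genes), and 5 were called without SCaBER siFOXA1.1 replicate 1. CD274 encodes PD-L1 and stood at 24 and 26.1 against 0 and 3.14 CPM in RT112 and 19.1 and 34.7 against 5.86 and 6.18 CPM in SCaBER, with controls at 1.25 to 6.18 and 2.11 to 5.96 CPM. For CD274 the log2 difference was 3.06 ± 0.68 (adjusted p = 0.0117). LGALS9, a ligand of TIM-3, stood at 152 and 175 against 43.6 and 36.2 CPM in RT112 and 119 and 118 against 11.3 and 27.9 CPM in SCaBER. For LGALS9 the log2 difference was 2.39 ± 0.26 (adjusted p = 0.000227). Both were higher in every siFOXA1.1 library than in either siFOXA1.2 library of the line. The third, PDCD1LG2, encodes PD-L2 and was named after its values were seen, at 3.37 and 0 against 0 and 0 CPM in RT112 and 10.4 and 22.6 against 0.771 and 2.38 CPM in SCaBER. For PDCD1LG2 the log2 difference was 3.99 ± 1.11 (adjusted p = 0.0353). Of 17 genes of MHC class I presentation only PSME2, a proteasome activator, was called (5.88%, under the 10.6% of all genes). It stood at 92.3 and 68.2 against 45.2 and 49.3 CPM in RT112 and 125 and 119 against 80.4 and 84.8 CPM in SCaBER (log2 difference 0.73 ± 0.18, adjusted p = 0.0176), and its call was lost in 4 of the 17 other settings. Class I genes share reads with close relatives, so their values are uncertain.

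Of chemokines 30% were called, of cytokines 15.4% and of NF-kB genes 11.1%, against 10.6% of all genes. The NF-kB share was thus near that of all genes. Of 10 chemokines tested 2 were higher and 1 lower, and 1 call was left without any 1 library other than siFOXA1.1 replicate 1 of either line. CXCL10, an interferon-induced attractant of T cells, stood at 2.34 and 1.33 against 0 and 0 CPM in RT112 and 23.1 and 46.7 against 1.54 and 9.98 CPM in SCaBER (log2 difference 3.20 ± 0.74, adjusted p = 0.0144), and the call was lost without SCaBER siFOXA1.1 replicate 2 (adjusted p = 0.0600). CXCL16 (1.36, adjusted p = 0.0358, 0.0578 with the batch as a block) was higher, and CXCL1, with counts in SCaBER alone, was lower (-0.997, adjusted p = 0.0412, 0.0597 with the block). Of 18 NF-kB genes CYLD and NFKB2 were higher and none was lower, and the list had 1 call without any 1 RT112 library and 4 without SCaBER siFOXA1.1 replicate 1. CYLD, a deubiquitinase that limits NF-kB, stood at 47.3 and 56.4 against 14.1 and 22.9 CPM in RT112 and 80.7 and 141 against 41.8 and 37.9 CPM in SCaBER. For CYLD the log2 difference was 1.55 ± 0.24 (adjusted p = 0.00143). Of 13 cytokines tested CSF1 and IL11 were higher. CSF1 lost its call in 9 of 17 other settings, among them each that left out 1 RT112 library, and the list had no call in the fit of TPM values or without SCaBER siFOXA1.2 replicate 1 and 1 without SCaBER siFOXA1.1 replicate 2. IL11, named after its values were seen, rested on SCaBER, at 1.32 and 0 against 0 and 0 CPM in RT112 and 28.8 and 41.1 against 3.70 and 5.23 CPM in SCaBER. For IL11 the log2 difference was 3.21 ± 0.75 (adjusted p = 0.0156).

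Genes of G2 and mitosis were the largest block of lower calls among the lists: of 70 tested, of 71 listed, 57 were lower and none higher with siFOXA1.1, against 5.39% of all genes lower (at an unadjusted p under 0.05, 64 lower and 0 higher). Their median was -1.67 (-2.23 in RT112 and -1.14 in SCaBER); for batches 1 and 2 it came to -1.91 and -2.53 with RT112 alone, -1.06 and -1.25 with SCaBER alone. In 64 the siFOXA1.1 libraries lay below every control library in both lines, and in 4 the siFOXA1.2 libraries did, against 8.23% and 1.2% of all genes. Between the control siRNAs their median was -0.12. Called differences ran from -2.77 to -0.99.

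MKI67, the proliferation antigen Ki-67, stood at 52.9 and 20.9 against 327 and 342 CPM in RT112 and 69.1 and 66.7 against 415 and 348 CPM in SCaBER with controls at 323 to 438 and 289 to 409.9 CPM. For MKI67 the log2 difference was -2.77 ± 0.25 (adjusted p = 4.69e-05). HMMR, a spindle protein, stood at 12 and 15.3 against 90.9 and 114 CPM in RT112 and 24.6 and 24.7 against 90.5 and 85.7 CPM in SCaBER (log2 difference -2.29 ± 0.25, adjusted p = 0.000248), and CDCA3, which triggers mitotic entry, at 6.59 and 4.57 against 59.3 and 62 CPM in RT112 and 16.1 and 12.9 against 46.4 and 52.4 CPM in SCaBER. For CDCA3 the log2 difference was -2.51 ± 0.34 (adjusted p = 0.000660). The siFOXA1.1 libraries of these 3 genes lay below all controls, while all but 2 of their 12 siFOXA1.2 libraries lay within the control range. CKAP2L, a spindle pole protein, stood at 10.8 and 6.78 against 61.2 and 80.6 CPM in RT112 and 25.2 and 38.3 against 94.6 and 97.4 CPM in SCaBER. For CKAP2L the log2 difference was -2.21 ± 0.30 (adjusted p = 0.000674). KIF20A, a kinesin of cytokinesis, stood at 9.37 and 5.60 against 62.7 and 66.4 CPM in RT112 and 6.06 and 11.6 against 12.3 and 33.1 CPM in SCaBER. For KIF20A the log2 difference was -2.17 ± 0.43 (adjusted p = 0.00679). CCNA2 encodes cyclin A2 and stood at 2.49 and 1.18 against 27.5 and 43.4 CPM in RT112 and 13.6 and 14.5 against 31.9 and 36.6 CPM in SCaBER (log2 difference -2.56 ± 0.54, adjusted p = 0.00918), and its call was lost without RT112 siFOXA1.1 replicate 1 (adjusted p = 0.0525). None of the 6 overlapped between the siRNAs in either line, as their choice required.

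The promoters of this block hold another pair of patterns. TTTGAA on either strand, the core of the cell cycle genes homology region that MuvB complexes bind, is in 4961 of 27305 genes with a window (18.2%), and CCAAT, the box that NF-Y binds, in 10846 (39.7%). Among the 10263 tested genes matched to a window 1414 hold TTTGAA (13.8%) and 4486 hold CCAAT (43.7%). Of 70 genes tested 61 matched a window, and TTTGAA is in 45 (73.8%) and CCAAT in 46 (75.4%) of these; the interferon element core is in 2 (3.28%). Called members hold TTTGAA in 35 of 50 and CCAAT in 35 of 50, and members not called in 10 of 11 (90.9%) and 11 of 11. Stretches of 30 bases follow in the same form, on the strand of the gene, for TTTGAA in MKI67 (chr10:128126435-128126464, minus), HMMR (chr5:163460598-163460627, plus) and CKAP2L (chr2:112764610-112764639, minus) and for CCAAT in CDCA3 (chr12:6851306-6851335, minus). In MKI67 the TTTGAA match shares a base with a reverse match of CCAAT.
MKI67: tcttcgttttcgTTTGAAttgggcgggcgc
HMMR: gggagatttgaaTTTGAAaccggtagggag
CKAP2L: tacaggcgcggcgTTTGAAgaaaaactgtc
CDCA3: acgtcggctcagCCAATagggtcagggcag

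Regulators of the cycle were lower as well. Of 12 G1 genes tested 3 were lower and none higher (25% called, against 10.6% of all genes), and 5 were called without SCaBER siFOXA1.1 replicate 1. CCNE2, cyclin E2, which starts replication with CDK2, stood at 7.03 and 3.68 against 26.2 and 30.9 CPM in RT112 and 2.46 and 2.17 against 24.4 and 19.8 CPM in SCaBER. For CCNE2 the log2 difference was -2.73 ± 0.39 (adjusted p = 0.000877). CDK4, a kinase that inactivates RB, stood at 104 and 85.6 against 214 and 193 CPM in RT112 and 147 and 88.9 against 219.5 and 215 CPM in SCaBER (log2 difference -0.92 ± 0.18, adjusted p = 0.00660), and its partner CCND1, cyclin D1, at 161 and 134 against 215 and 274 CPM in RT112 and 452 and 458 against 843 and 837 CPM in SCaBER. For CCND1 the log2 difference was -0.74 ± 0.14 (adjusted p = 0.00589). The groups of these 3 genes did not overlap in either line. Of 18 E2F, RB and mitotic regulators 5 were lower and none higher (27.8% called), with a median of -1.05. MYBL2, the B-MYB of the MuvB complex, stood at 28 and 15.5 against 254 and 255 CPM in RT112 and 139 and 79.97 against 325 and 303 CPM in SCaBER (log2 difference -2.43 ± 0.37, adjusted p = 0.00123), and FOXM1, its partner on mitotic genes, at 13.3 and 10.3 against 75.9 and 78.1 CPM in RT112 and 45.8 and 49.7 against 139 and 141 CPM in SCaBER. For FOXM1 the log2 difference was -2.04 ± 0.24 (adjusted p = 0.000267). TFDP1, the partner of E2F factors (log2 difference -1.94 ± 0.28, adjusted p = 0.00104), RBL1, the pocket protein p107 (log2 difference -1.41 ± 0.28, adjusted p = 0.00669), and E2F1 (log2 difference -1.32 ± 0.22, adjusted p = 0.00262) were lower too.

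DNA replication genes were lower in 21 of 44, against 5.39% of all genes, and higher in none, with a median of -0.91. GINS2, part of the replicative helicase, stood at 15.7 and 6.04 against 51.9 and 48.1 CPM in RT112 and 17 and 15.6 against 43 and 68.9 CPM in SCaBER (log2 difference -1.92 ± 0.30, adjusted p = 0.00167), and CLSPN, which couples the fork to its checkpoint, at 22 and 20.9 against 92.7 and 97 CPM in RT112 and 44.3 and 56.7 against 162 and 112 CPM in SCaBER. For CLSPN the log2 difference was -1.72 ± 0.21 (adjusted p = 0.000378). The libraries did not overlap for either. The count of 21 was 13, 12 and 13 without RT112 siFOXA1.1 replicate 2, RT112 siFOXA1.2 replicate 1 and RT112 siFOXA1.2 replicate 2, and 18 genes were called lower in RT112 alone and 3 in SCaBER alone. TTTGAA is in 1 of the 38 members matched to a promoter window (2.63%), against 13.8% of all tested genes matched to one. The mitotic block had 73.8%, with no test of the difference.

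Enzymes that make nucleotides were lower in 8 of 16 and higher in 1, against 5.39% and 5.23% of all genes. TYMS, which makes thymidylate, stood at 4.98 and 1.62 against 45.2 and 48.2 CPM in RT112 and 9.85 and 14.2 against 40.7 and 55.1 CPM in SCaBER. For TYMS the log2 difference was -2.79 ± 0.42 (adjusted p = 0.00123). RRM2, the small subunit of ribonucleotide reductase, stood at 50.5 and 13.8 against 296 and 323 CPM in RT112 and 27.8 and 10.4 against 95.8 and 89.2 CPM in SCaBER (log2 difference -2.72 ± 0.38, adjusted p = 0.000850), and TK1, thymidine kinase, at 38.2 and 17.5 against 108 and 86.9 CPM in RT112 and 73.1 and 45.8 against 138 and 130.4 CPM in SCaBER. For TK1 the log2 difference was -1.42 ± 0.26 (adjusted p = 0.00364). These 3 did not overlap in either line. ATIC, of purine synthesis, was higher (0.59, adjusted p = 0.0320, 0.0656 with the block). The count of 9 calls was 4 without RT112 siFOXA1.1 replicate 2, 3 without RT112 siFOXA1.2 replicate 2 and 5 without SCaBER siFOXA1.2 replicate 1.

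Of 35 genes of homologous recombination and repair tested 13 were lower and none higher, with a median of -1.05, against 5.39% of all genes lower. RT112 alone had 13 lower with a median of -1.47, and SCaBER alone 1 with a median of -0.74. The count for both lines was 9 to 17 with 1 library left out. TRIP13, a meiotic and spindle checkpoint ATPase, stood at 4.54 and 3.83 against 16.9 and 25.4 CPM in RT112 and 5.49 and 8.10 against 38.9 and 33.1 CPM in SCaBER. For TRIP13 the log2 difference was -2.30 ± 0.33 (adjusted p = 0.000883). FANCA, of the Fanconi core complex, stood at 6.88 and 9.28 against 37.6 and 31 CPM in RT112 and 11.4 and 10.8 against 27.6 and 32.6 CPM in SCaBER. For FANCA the log2 difference was -1.68 ± 0.29 (adjusted p = 0.00310). BRCA1, named after its values were seen, had log2 difference -1.45 ± 0.24, adjusted p = 0.00208. All siFOXA1.1 libraries lay below the siFOXA1.2 libraries of the line for TRIP13 and FANCA.

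Histone genes split in direction, with 7 of 27 lower and 3 higher, against 5.39% and 5.23% of all genes. HIST1H4C, a replication-dependent H4 gene, stood at 155 and 73.1 against 643 and 582 CPM in RT112 and 297 and 154 against 1022 and 849.7 CPM in SCaBER (log2 difference -2.17 ± 0.25, adjusted p = 0.000258), and HIST1H1D, a linker histone, at 0.586 and 0 against 10.6 and 23.4 CPM in RT112 and 3.03 and 2.17 against 23.4 and 25.7 CPM in SCaBER. For HIST1H1D the log2 difference was -4.15 ± 0.67 (adjusted p = 0.00187). HIST1H2AC, which can also be read into polyadenylated mRNA, was higher, at 135 and 108 against 2.48 and 8.06 CPM in RT112 and 17.4 and 53.7 against 5.40 and 3.01 CPM in SCaBER (log2 difference 3.90 ± 0.48, adjusted p = 0.000403), as was HIST2H2BE, at 26.1 and 18.1 against 2.04 and 0.546 CPM in RT112 and 18 and 44.5 against 4.01 and 6.02 CPM in SCaBER. For HIST2H2BE the log2 difference was 3.36 ± 0.51 (adjusted p = 0.00135). Histone genes are near-identical copies and replication-dependent histone mRNAs lack the poly(A) tail that the library kit primes on, so these values are uncertain. The list's 10 calls were 5 or 6 without any 1 RT112 library.

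Of 24 p53 targets tested, with the CDK inhibitor of the pathway left aside, 4 were higher and 1 lower (4 and 3 with RT112 alone). The share called was 20.8%, against 10.6% of all genes. GADD45A, a growth arrest gene, stood at 31.8 and 31.1 against 15.2 and 21.6 CPM in RT112 and 224 and 256 against 98.6 and 106 CPM in SCaBER. For GADD45A the log2 difference was 1.08 ± 0.18 (adjusted p = 0.00242). It was higher in all 4 siFOXA1.1 libraries than in the siFOXA1.2 libraries of their line. BBC3 (PUMA, 1.43), ZMAT3 (1.30) and SESN2 (0.67) were higher and BTG2 lower (-1.56). The count of 5 was 1 or 2 without any 1 RT112 library, 10 without SCaBER siFOXA1.1 replicate 1 and 1 in the fit of TPM values, and with the batch as a block BTG2 (adjusted p = 0.0501) and SESN2 (adjusted p = 0.0612) were not called.

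**Figure D3:**
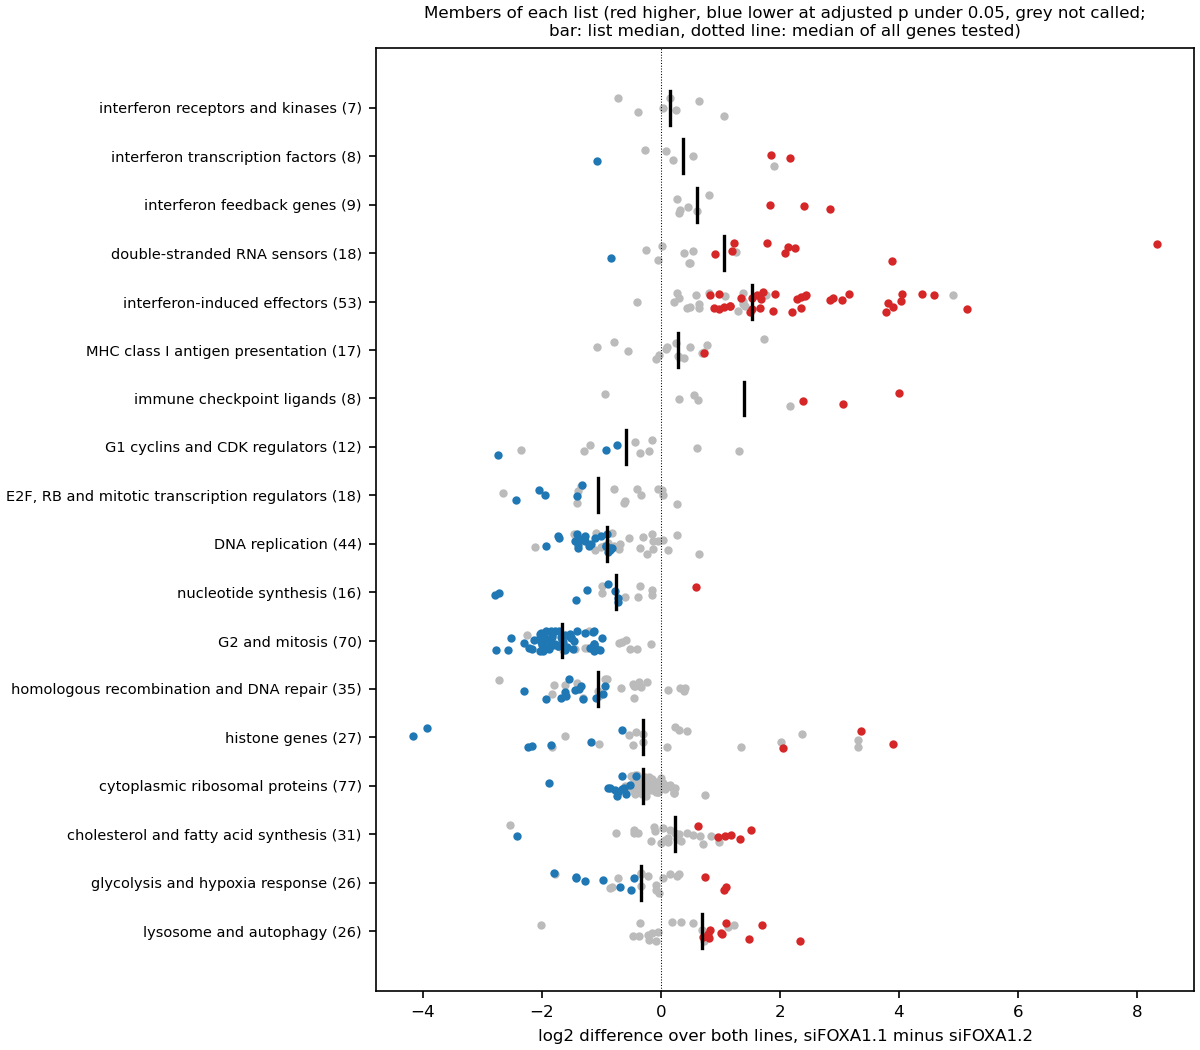
Log2 difference between siFOXA1.1 and siFOXA1.2 with both lines in 1 fit (horizontal axis) for each tested member of 18 gene lists (rows); red points are called higher, blue called lower, grey not called, the bar is the list's median and the dotted line the median of all genes tested. The interferon-induced effectors centre on 1.53 and the G2 and mitosis genes on -1.67.

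Genes of ribosome making were lower, with more calls in RT112 than in SCaBER. Of 29 MYC targets and nucleolar genes 10 were lower, against 5.39% of all genes, and none higher, with a median of -0.61 (-0.70 in RT112 and -0.56 in SCaBER). RT112 alone had 9 lower and SCaBER alone 2, against 6.1% and 1.59% of all genes. SRM, spermidine synthase, stood at 32.4 and 29.8 against 169 and 174 CPM in RT112 and 172 and 76.9 against 287 and 316 CPM in SCaBER. For SRM the log2 difference was -1.78 ± 0.28 (adjusted p = 0.00144). NPM1, nucleophosmin, stood at 352 and 331 against 718 and 767 CPM in RT112 and 454 and 339 against 1114 and 949 CPM in SCaBER (log2 difference -1.18 ± 0.15, adjusted p = 0.000547), and FBL, the methyltransferase fibrillarin, at 60.9 and 65.7 against 184 and 154 CPM in RT112 and 153 and 103 against 275 and 217 CPM in SCaBER. For FBL the log2 difference was -1.10 ± 0.19 (adjusted p = 0.00277). All 3 lay lower without overlap in both lines. HSPD1, the mitochondrial chaperonin HSP60, was lower too (log2 difference -1.05 ± 0.18, adjusted p = 0.00310).

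Of 77 cytoplasmic ribosomal proteins tested 12 were lower and none higher (15.6% called, against 10.6% of all genes), with a median of -0.30 (-0.46 in RT112 and -0.13 in SCaBER) that was negative under every scaling tried. RT112 alone had 22 lower and SCaBER alone 1, against 6.1% and 1.59% of all genes. RPS2 stood far from the rest, at 514 and 391 against 2364 and 2162 CPM in RT112 and 1187 and 1116 against 3704 and 3133 CPM in SCaBER with controls at 1975 to 2165 and 3519.8 to 4498 CPM. For RPS2 the log2 difference was -1.88 ± 0.16 (adjusted p = 4.26e-05). RPS6 (log2 difference -0.85 ± 0.17, adjusted p = 0.00651) and RPLP0 (log2 difference -0.73 ± 0.14, adjusted p = 0.00556) differed less, and the RPLP0 libraries of both siRNAs lay within the control range except 1 with siFOXA1.1 in RT112, and the control siRNAs themselves differed by 1.05 (adjusted p = 0.000113). Many ribosomal proteins have near-identical pseudogenes that can take reads, so single values are uncertain. The count was 6 or 7 without any 1 RT112 library and 33 and 26 without SCaBER siFOXA1.1 replicate 1 and 2.

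Of 13 mitochondrially encoded genes 2 were higher, MT-ND1 and MT-ND2 of complex I, both named after their values were seen, with a median of 0.30. The lines were unlike: in RT112 alone 7 of the 13 were higher, against 5.99% of all genes, with a median of 0.57 (0.41 in batch 1 and 0.57 in batch 2), and in SCaBER alone none was called and the median was -0.02. MT-ND1 stood at 12831 and 12448 against 6035 and 5951 CPM in RT112 and 1951 and 4153 against 2017 and 2545 CPM in SCaBER (log2 difference 0.82 ± 0.21, adjusted p = 0.0245), with overlap in SCaBER, and the list had no call without any 1 RT112 library or without SCaBER siFOXA1.2 replicate 1, and 4 without SCaBER siFOXA1.1 replicate 2. Of 74 nuclear genes tested 3 were higher and 3 lower, beside a background of 10.6%; the 6 calls were 3 without any 1 RT112 library and 11 without SCaBER siFOXA1.1 replicate 2. CYCS, cytochrome c, stood at 60.2 and 57.5 against 162 and 172 CPM in RT112 and 108 and 110.2 against 266 and 215 CPM in SCaBER (log2 difference -1.25 ± 0.16, adjusted p = 0.000470), without overlap in either line. CHCHD10, a protein of the mitochondrial intermembrane space outside these lists, was among the strongest differences of all genes, at 13 and 5.30 against 107 and 128 CPM in RT112 and 4.92 and 3.04 against 52.6 and 39.9 CPM in SCaBER. For CHCHD10 the log2 difference was -3.55 ± 0.31 (adjusted p = 4.26e-05).

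Cholesterol and fatty acid synthesis genes were higher in 6 of 31 tested and lower in 1 (22.6% called, against 10.6% of all genes), with a median of 0.24. By line, RT112 had 2 higher and 5 lower with a median of 0.05 (-0.18 in batch 1 and 0.03 in batch 2), and SCaBER 7 higher and 1 lower with a median of 0.62 (0.42 and 0.65); the difference between the lines was called in 1 member. SREBF2, the master transcription factor of the pathway, stood at 177 and 174 against 64.4 and 56.1 CPM in RT112 and 116 and 126 against 51.4 and 44.7 CPM in SCaBER with controls at 89.3 to 105 and 57.6 to 92.3 CPM (log2 difference 1.51 ± 0.17, adjusted p = 0.000257), so siFOXA1.1 lay above and siFOXA1.2 below the controls in both lines. HMGCS1, an early enzyme of the pathway, stood at 124 and 160.3 against 68.8 and 85.4 CPM in RT112 and 345 and 697 against 226 and 189 CPM in SCaBER. For HMGCS1 the log2 difference was 1.18 ± 0.21 (adjusted p = 0.00371). IDI1 (1.33), MSMO1 (1.08), FDPS (0.96) and DHCR7 (0.63, named after its values were seen) were higher as well, and in the fit of TPM values 3 calls of the list were left. FADS1, a fatty acid desaturase, was lower, at 1.90 and 2.36 against 23.6 and 23.8 CPM in RT112 and 71.4 and 59.6 against 231 and 239 CPM in SCaBER. For FADS1 the log2 difference was -2.41 ± 0.28 (adjusted p = 0.000272). Neither SREBF2, HMGCS1 nor FADS1 overlapped between the siRNAs.

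Of 26 genes of glycolysis and hypoxia tested 8 were lower and 3 higher (42.3% called, against 10.6% of all genes). LDHA, lactate dehydrogenase, stood at 207 and 143 against 990.2 and 922 CPM in RT112 and 108 and 296 against 527 and 439 CPM in SCaBER with controls at 449 to 521 and 258 to 628 CPM. For LDHA the log2 difference was -1.79 ± 0.29 (adjusted p = 0.00208). In RT112 siFOXA1.2 lay above and siFOXA1.1 below all controls. GPI, glucose-6-phosphate isomerase, stood at 181 and 118 against 499 and 397 CPM in RT112 and 160.2 and 112 against 383 and 339 CPM in SCaBER (log2 difference -1.43 ± 0.18, adjusted p = 0.000470), and BNIP3, a hypoxia-induced mitophagy receptor, at 12.3 and 9.58 against 41.2 and 30.05 CPM in RT112 and 29.4 and 17.2 against 65.9 and 49.6 CPM in SCaBER. For BNIP3 the log2 difference was -1.43 ± 0.27 (adjusted p = 0.00501). HK2 (1.06), ADM (1.09) and SLC16A3 (0.74) were higher, and each lost its call in at least 5 of 17 other settings. The 11 calls were 6 or 7 without any 1 RT112 library or either SCaBER siFOXA1.2 library and 6 in the fit of TPM values.

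Lysosome and autophagy genes were higher in 10 of 26 tested, against 5.23% of all genes, and lower in none, with a median of 0.70. SQSTM1, the autophagy receptor p62, stood at 1144 and 1371 against 267 and 302 CPM in RT112 and 729 and 843 against 362 and 373.3 CPM in SCaBER with controls at 324 to 543 and 354 to 471 CPM. For SQSTM1 the log2 difference was 1.69 ± 0.22 (adjusted p = 0.000470). CTSS, the protease cathepsin S, which interferon can induce, stood at 18.2 and 12.1 against 2.62 and 0.819 CPM in RT112 and 92.2 and 122 against 33.9 and 31.4 CPM in SCaBER (log2 difference 2.34 ± 0.36, adjusted p = 0.00143), and ATP6V0D1, of the proton pump, at 204 and 151 against 93 and 71.7 CPM in RT112 and 246 and 209 against 156 and 112 CPM in SCaBER. For ATP6V0D1 the log2 difference was 1.01 ± 0.19 (adjusted p = 0.00462). These 3 were higher without overlap. The count of 10 was 5 or 6 without any 1 RT112 library and 5 in the fit of TPM values.

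Of endoplasmic reticulum stress genes 13.0% were called and of antioxidant genes 14.3%, against 10.6% of all genes. Of 23 genes of endoplasmic reticulum stress tested ATF3, PPP1R15A and SESN2 were higher; 1 call was left with the batch as a block, without any 1 RT112 library or without SCaBER siFOXA1.2 replicate 1, and 6 calls were made without SCaBER siFOXA1.1 replicate 1. ATF3, a stress-induced factor that is also counted with AP-1, stood at 37.2 and 27.4 against 7.58 and 6.83 CPM in RT112 and 44.3 and 86.8 against 23.1 and 15.8 CPM in SCaBER. For ATF3 the log2 difference was 2.01 ± 0.29 (adjusted p = 0.000991). Of 21 antioxidant genes OSGIN1 (1.77) and FTL (0.68) were higher and PGD lower (-0.58, adjusted p = 0.0482, 0.0738 with the block), and 1 call was left without RT112 siFOXA1.1 replicate 1 or either RT112 siFOXA1.2 library.

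The luminal and basal programmes define the lines. Of luminal transcription factors 11.8% were called and of the longer list of luminal markers 21.7%. Of basal transcription factors 25% were called and of basal markers 20.7%, against 10.6% of all genes. The 5 luminal markers used to check the lines, FOXA1 among them, summed in RT112 to 395 to 488 CPM with siFOXA1.1, 659 to 773 CPM with siFOXA1.2 and 909 to 1121 CPM in the controls, without overlap, and in SCaBER to 41.8 to 45.6, 27.8 to 37.9 and 41.3 to 60.1 CPM. Their median difference was -0.58 in RT112 (-0.98 in batch 1 and -0.64 in batch 2) and 0.67 in SCaBER, and none of the 5 was called. Of 17 luminal transcription factors tested none was higher and 2 lower (11.8% called, beside 10.6% of all genes), and 1 call was left without any 1 RT112 library or SCaBER siFOXA1.2 replicate 1. KLF5 stood at 183 and 112 against 369.8 and 327 CPM in RT112 and 102 and 44.7 against 167 and 163 CPM in SCaBER with controls at 408 to 601 CPM in RT112 (log2 difference -1.13 ± 0.24, adjusted p = 0.00879), and EHF was the other (-0.89, adjusted p = 0.0317, 0.0599 with the block). Of 23 luminal markers in the longer list 4 were lower and 1 higher, and the 5 calls were 3 without either RT112 siFOXA1.1 library or RT112 siFOXA1.2 replicate 2 and 2 in the fit of TPM values. KRT18, a keratin of simple epithelia, stood at 743 and 665 against 981 and 1039.6 CPM in RT112 and 467 and 402 against 824 and 814 CPM in SCaBER. For KRT18 the log2 difference was -0.64 ± 0.15 (adjusted p = 0.0127). FABP4, a urothelial fatty acid carrier named after its values were seen, had counts in RT112 alone, at 56.1 and 60.1 against 396 and 523 CPM (log2 difference -2.85 ± 0.27, adjusted p = 0.000267).

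Of 12 basal transcription factors MAFK was higher and TP63 and HMGA2 lower, and 5 were called without SCaBER siFOXA1.1 replicate 2. TP63 lost its call in 6 of 17 other settings, among them each that left out 1 RT112 library (adjusted p = 0.0554 to 0.112). HMGA2, a chromatin protein, stood at 7.76 and 6.63 against 10.8 and 30.05 CPM in RT112 and 128 and 175 against 437 and 455 CPM in SCaBER (log2 difference -1.47 ± 0.26, adjusted p = 0.00328) and MAFK, a small MAF factor of keratinocytes, at 65.8 and 78.5 against 42.3 and 37.7 CPM in RT112 and 112 and 100.2 against 64 and 44.5 CPM in SCaBER. For MAFK the log2 difference was 0.98 ± 0.19 (adjusted p = 0.00634). Both kept apart in both lines. Of 29 basal markers 3 were higher and 3 lower, and the 6 calls were 3 without RT112 siFOXA1.2 replicate 1 and 12 with no filter. KRT17, a stress-induced basal keratin, stood at 395 and 441 against 309 and 265 CPM in RT112 and 3821 and 2962 against 1159 and 1033 CPM in SCaBER. For KRT17 the log2 difference was 1.16 ± 0.20 (adjusted p = 0.00264). S100A8 and S100A9, the subunits of calprotectin, were lower: S100A8 stood at 37.2 and 32.3 against 259 and 306 CPM in RT112 and 11.2 and 3.04 against 55.8 and 24.4 CPM in SCaBER (log2 difference -2.72 ± 0.35, adjusted p = 0.000476), and S100A9 at 625 and 624 against 1091 and 1092 CPM in RT112 and 56.8 and 44.8 against 165 and 101 CPM in SCaBER. For S100A9 the log2 difference was -1.02 ± 0.20 (adjusted p = 0.00554). S100A8 also differed by 2.23 between the control siRNAs (adjusted p = 0.00995).

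Of 20 integrins and laminins 4 were higher and none lower (20% called, against 10.6% of all genes). RT112 alone had 6 higher and 2 lower, and SCaBER alone no call. ITGB6, a chain of the epithelial integrin that activates TGF-beta, stood at 169 and 147 against 65.4 and 71.8 CPM in RT112 and 65 and 112 against 48 and 42.9 CPM in SCaBER (log2 difference 1.15 ± 0.20, adjusted p = 0.00270), and LAMB2, a laminin chain, at 22.1 and 22.1 against 6.12 and 1.502 CPM in RT112 and 27.1 and 48.9 against 13 and 19.5 CPM in SCaBER. For LAMB2 the log2 difference was 1.92 ± 0.45 (adjusted p = 0.0154). ITGA5, the fibronectin receptor chain, stood at 14.6 and 19.6 against 4.08 and 2.05 CPM in RT112 and 308 and 311 against 156 and 212 CPM in SCaBER. For ITGA5 the log2 difference was 1.51 ± 0.33 (adjusted p = 0.0107). The siRNA groups were separate in both lines for all 3. Of 26 junction genes 4 were higher and none lower (15.4% called, against 10.6% of all genes), and 7 were called without SCaBER siFOXA1.1 replicate 1. RT112 alone had 6 higher and 3 lower. Among the 4 was F11R, the tight junction protein JAM-A, at 325 and 270.2 against 189.9 and 189 CPM in RT112 and 398 and 379.9 against 207 and 266 CPM in SCaBER. For F11R the log2 difference was 0.76 ± 0.14 (adjusted p = 0.00492).

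Of 32 mesenchymal and matrix genes tested 7 were higher and none lower (8 and 2 with RT112 alone), with a median of 0.20, and CDH1, the epithelial cadherin that the list holds as its counterpart, was 1 of the 7 (0.83, named after its values were seen). The share called was 21.9%, against 10.6% of all genes. The 7 calls were 3 or 4 without any 1 RT112 library or SCaBER siFOXA1.2 replicate 1 and 2 in the fit of TPM values. TIMP2, a protease inhibitor, stood at 308 and 342 against 119 and 114 CPM in RT112 and 203 and 206 against 98.3 and 153 CPM in SCaBER (log2 difference 1.17 ± 0.21, adjusted p = 0.00338), and CALD1, an actin-binding protein, at 72.5 and 86.9 against 19.5 and 14.6 CPM in RT112 and 463 and 657 against 352 and 339 CPM in SCaBER. For CALD1 the log2 difference was 1.49 ± 0.29 (adjusted p = 0.00564). Both lay higher in every siFOXA1.1 library. COL1A1, listed as a fibroblast marker, was also higher, at 56.5 and 53.9 against 14.3 and 9.29 CPM in RT112 and 9.47 and 20.4 against 1.54 and 5.86 CPM in SCaBER (log2 difference 2.20 ± 0.40, adjusted p = 0.00363), while of the other 6 fibroblast markers COL3A1 and DCN had no count in any library, COL1A2, PDGFRA and PDGFRB reached at most 1.32 CPM, and LUM lay between 48.9 and 137 CPM in the RT112 libraries and between 4.86 and 28.2 CPM in those of SCaBER. The 7 markers summed in RT112 to 103 to 109 CPM with siFOXA1.1, 142 to 146 with siFOXA1.2 and 84.6 to 137 in the controls, and in SCaBER to 16.3 to 45.1, 10.03 to 17.4 and 10.7 to 38.8 CPM.

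Signalling genes moved one by one. Of 32 TGF-beta and activin genes 4 were lower and 1 higher (15.6% called, against 10.6% of all genes). Without either RT112 siFOXA1.1 library, RT112 siFOXA1.2 replicate 2 or SCaBER siFOXA1.2 replicate 1, 2 or 3 calls were left. ID1, a target of BMP signalling that blocks differentiation factors, stood at 35.4 and 15.6 against 470.0 and 466 CPM in RT112 and 8.33 and 19.7 against 60.2 and 48.6 CPM in SCaBER with controls at 388 to 575 and 91.4 to 147 CPM (log2 difference -3.05 ± 0.44, adjusted p = 0.000883), a fold of 8.29 lower, and TGFBR2, the TGF-beta receptor, at 13.9 and 15 against 33.8 and 50.5 CPM in RT112 and 0.379 and 1.16 against 7.71 and 8.08 CPM in SCaBER. For TGFBR2 the log2 difference was -2.13 ± 0.44 (adjusted p = 0.00838). Of 23 EGF and ERK genes 2 were lower and none higher (8.70% called, beside 10.6% of all genes), and the count was 1 without RT112 siFOXA1.2 replicate 2 or either SCaBER siFOXA1.2 library and 4 without SCaBER siFOXA1.1 replicate 1. Among them was DUSP6, a phosphatase that ERK induces and that switches ERK off, at 50.8 and 28.1 against 104 and 94 CPM in RT112 and 16.3 and 22.8 against 33.8 and 57.7 CPM in SCaBER. For DUSP6 the log2 difference was -1.21 ± 0.25 (adjusted p = 0.00765). For none of these 3 genes did the siRNAs overlap.

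AP-1 and immediate early genes were higher in 5 of 15 tested, against 5.23% of all genes, and lower in none, with a median of 0.70. JUN stood at 367 and 457 against 184 and 155 CPM in RT112 and 397 and 322 against 184 and 162 CPM in SCaBER (log2 difference 1.25 ± 0.17, adjusted p = 0.000575), and JUND at 709 and 633 against 256 and 207 CPM in RT112 and 483 and 453 against 206 and 304 CPM in SCaBER. For JUND the log2 difference was 1.28 ± 0.19 (adjusted p = 0.00109). IER2 was higher as well (log2 difference 0.77 ± 0.14, adjusted p = 0.00398). BATF, named after its values were seen, had counts in RT112 alone, at 77.3 and 66.9 against 14.1 and 18.2 CPM (log2 difference 2.25 ± 0.42, adjusted p = 0.00769). Of 16 YAP and TEAD targets 3 were higher and 1 lower (25% called, against 10.6% of all genes). The calls left were 2 without RT112 siFOXA1.1 replicate 1, RT112 siFOXA1.2 replicate 2, SCaBER siFOXA1.1 replicate 2 or SCaBER siFOXA1.2 replicate 1. ANKRD1 stood at 84.5 and 132 against 9.76 and 7.92 CPM in RT112 and 121 and 325 against 47.2 and 81.1 CPM in SCaBER (log2 difference 2.72 ± 0.42, adjusted p = 0.00144), and AMOTL2, a brake on YAP, at 170.5 and 184 against 53.8 and 76.8 CPM in RT112 and 99.8 and 215 against 76.4 and 89.4 CPM in SCaBER. For AMOTL2 the log2 difference was 1.25 ± 0.24 (adjusted p = 0.00540). CYR61, named after its values were seen, overlapped in SCaBER, at 51.1 and 60.7 against 7.72 and 8.47 CPM in RT112 and 48.9 and 421 against 71.7 and 112 CPM in SCaBER. For CYR61 the log2 difference was 2.08 ± 0.51 (adjusted p = 0.0202). AXL, a receptor kinase, was lower (log2 difference -0.83 ± 0.24, adjusted p = 0.0446) and lost its call in 7 of 17 other settings.

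Of 29 HOX genes tested 1 was called, HOXD11, and of 9 connexins 1, GJA5; both were named after their values were seen and had counts in RT112 alone. HOXD11 stood at 0 and 0 against 11.8 and 15 CPM and GJA5 at 45.4 and 32.4 against 0 and 0 CPM in siFOXA1.1 and siFOXA1.2. The background for such calls was 10.6%, and the HOX call was lost without any 1 RT112 library.

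**Figure D4:**
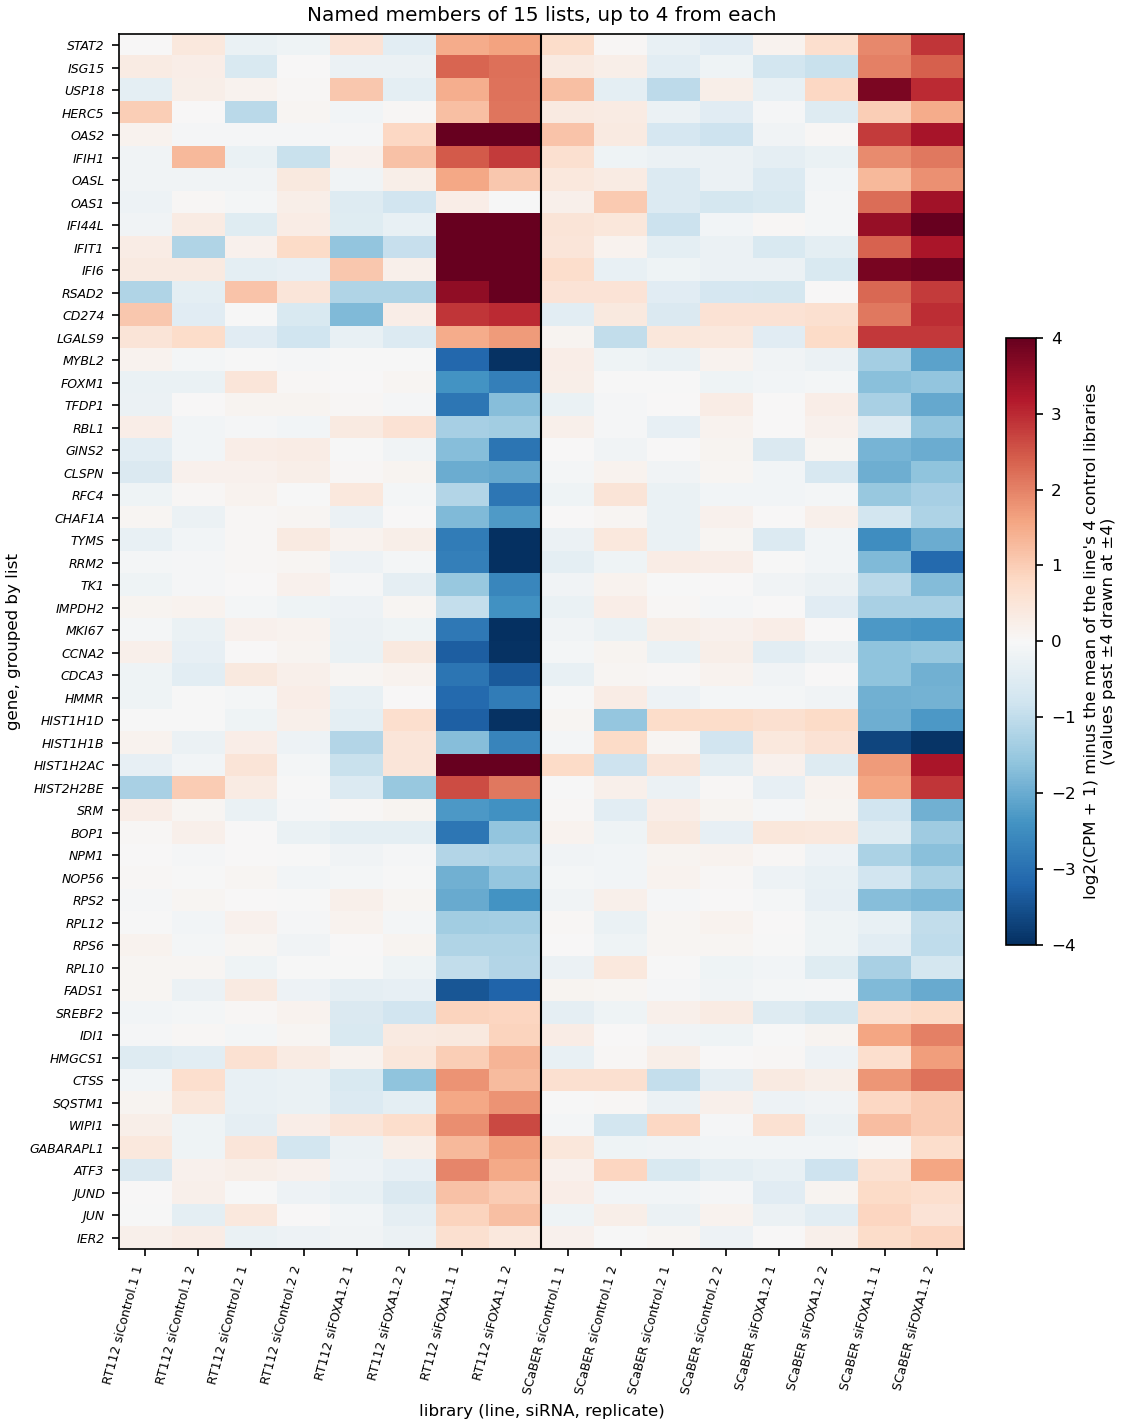
Level of up to 4 named genes of each of 15 lists (rows) in all 16 libraries (columns), as log2(CPM + 1) minus the mean of the line's 4 control libraries, with the colour scale limited to -4 and 4. In both lines the siFOXA1.1 columns are red for interferon genes and blue for G2 and mitosis genes, apart from OAS1 in RT112. For these genes the siFOXA1.2 columns lie nearer to the controls, again apart from OAS1 in RT112.

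The machinery through which every siRNA acts was largely not called. Of 15 genes of RNA interference tested 1 was lower and none higher (6.67% called, beside 10.6% of all genes). TNRC6A, the GW182 scaffold that links Argonaute to mRNA decay, stood at 126 and 136 against 244 and 278 CPM in RT112 and 211 and 252 against 348 and 439.7 CPM in SCaBER with controls at 175 to 194 and 269 to 331 CPM (log2 difference -0.81 ± 0.15, adjusted p = 0.00415), so siFOXA1.2 lay above and siFOXA1.1 below the controls. AGO2, the Argonaute that cuts the target, stood at 88.6 and 97.4 against 131 and 152 CPM in RT112 and 43.2 and 91.1 against 112 and 106 CPM in SCaBER and did not pass the test (log2 difference -0.58 ± 0.21, adjusted p = 0.101), nor did DICER1, which dices precursors (log2 difference -0.39 ± 0.17, adjusted p = 0.163).

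Several of the largest differences of all genes lay outside these lists and included arms with hardly any counts. KLK5, a secreted kallikrein protease of squamous epithelia, stood at 62.7 and 61.1 against 0 and 0 CPM in RT112 and 1.70 and 0.289 against 0 and 0 CPM in SCaBER; with no count in RT112 siFOXA1.2 it was at least 146-fold higher there, and RT112 controls lay at 0.302 to 5.99 CPM. TMEM217, a membrane protein, stood at 5.27 and 4.71 against 0.291 and 0 CPM in RT112 and 18.4 and 15.6 against 1.23 and 0.317 CPM in SCaBER. The siRNAs did not overlap for either. The lncRNA LINC01134 stood at 9.96 and 7.66 against 0 and 0.819 CPM in RT112 and 5.87 and 2.31 against 0 and 0 CPM in SCaBER, at least 8.72-fold higher in SCaBER.

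Among the largest differences in the other direction AC084125.2, a non-coding gene, had no count in any siFOXA1.1 library and stood at 8.45 and 11.2 CPM in RT112 and 2.78 and 2.22 CPM in SCaBER with siFOXA1.2, at least 22.3-fold and 4.98-fold lower with siFOXA1.1. Its control libraries lay at 1.73 to 5.89 and 0 to 0.162 CPM, below the siFOXA1.2 libraries of their line. CBR3, a carbonyl reductase, stood at 0.146 and 0 against 12.1 and 8.47 CPM in RT112 and 0 and 1.16 against 23.1 and 13.2 CPM in SCaBER, and the antisense gene TMPO-AS1 at 0 and 0.147 against 16.8 and 13.9 CPM in RT112 and 0 and 0.289 against 2.00 and 5.86 CPM in SCaBER, whose reads cannot be told with certainty from those of its partner, since the pipeline was set to detect the strand automatically and the strand it took is not given in the sources used here. Neither overlapped between the siRNAs. PPDPF, an abundant mRNA of a pancreatic differentiation factor, stood at 99.6 and 32.7 against 970.1 and 801 CPM in RT112 and 74.6 and 38.6 against 521 and 560.1 CPM in SCaBER with controls at 932 to 1359 and 412 to 712 CPM. For PPDPF the log2 difference was -3.43 ± 0.31 (adjusted p = 4.69e-05). For PPDPF all siFOXA1.1 libraries lay below the control range, and 3 of 4 siFOXA1.2 libraries within it.

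The size of the difference between the siRNAs itself differed between the lines in 79 genes (0.562%; 46 with a difference higher in RT112, 0.327%, and 33 lower, 0.235%; 125 with the batch as a block), and in 43 of these (0.306% of all tested) the direction was opposite. The count was 13, 1, 2 and 48 without RT112 siFOXA1.1 replicate 1, replicate 2, siFOXA1.2 replicate 1 and replicate 2, 235 and 359 without SCaBER siFOXA1.1 replicate 1 and 2, and 7 without either SCaBER siFOXA1.2 library. TM4SF1, a tetraspanin-like surface antigen, stood at 171 and 212 against 105 and 78.3 CPM in RT112 and 129 and 144 against 279 and 309 CPM in SCaBER, higher in RT112 (1.19 ± 0.22, adjusted p = 0.00337) and lower in SCaBER (-1.08 ± 0.22, adjusted p = 0.0166). ELF3, an epithelial ETS factor, stood at 331 and 246 against 181 and 151 CPM in RT112 and 57.4 and 61.3 against 119.5 and 125 CPM in SCaBER, higher in RT112 (0.92 ± 0.21, adjusted p = 0.0113) and lower in SCaBER (-1.02 ± 0.21, adjusted p = 0.0195). Fibronectin, FN1, went the other way, at 58.9 and 70.6 against 159 and 151 CPM in RT112 and 111 and 101 against 47.5 and 28.2 CPM in SCaBER (RT112 -1.13 ± 0.27, SCaBER 1.504 ± 0.28). These 3 genes were called in both lines in opposite directions, and none in the fit of both lines together.

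Among interferon genes 10 of the 53 effectors differed in size between the lines, and with 3 of them, SAMD9, GBP1 and GBP2, the RT112 value was negative. IFIT1 differed more in RT112 (6.76 ± 0.44) than in SCaBER (3.42 ± 0.33; difference adjusted p = 0.0138), and MX2 more in SCaBER (5.63 ± 0.43) than in RT112 (2.48 ± 0.36; difference adjusted p = 0.0148). Among the G2 and mitosis genes 1 of 70, NCAPG, did. SAMD9, named after its values were seen, stood at 86.6 and 43.6 against 210.3 and 199.5 CPM in RT112 and 253 and 372.7 against 189 and 194 CPM in SCaBER and was lower in RT112 (-1.54 ± 0.28, adjusted p = 0.00276) with no call in SCaBER (0.73 ± 0.27, adjusted p = 0.186).

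**Figure D5:**
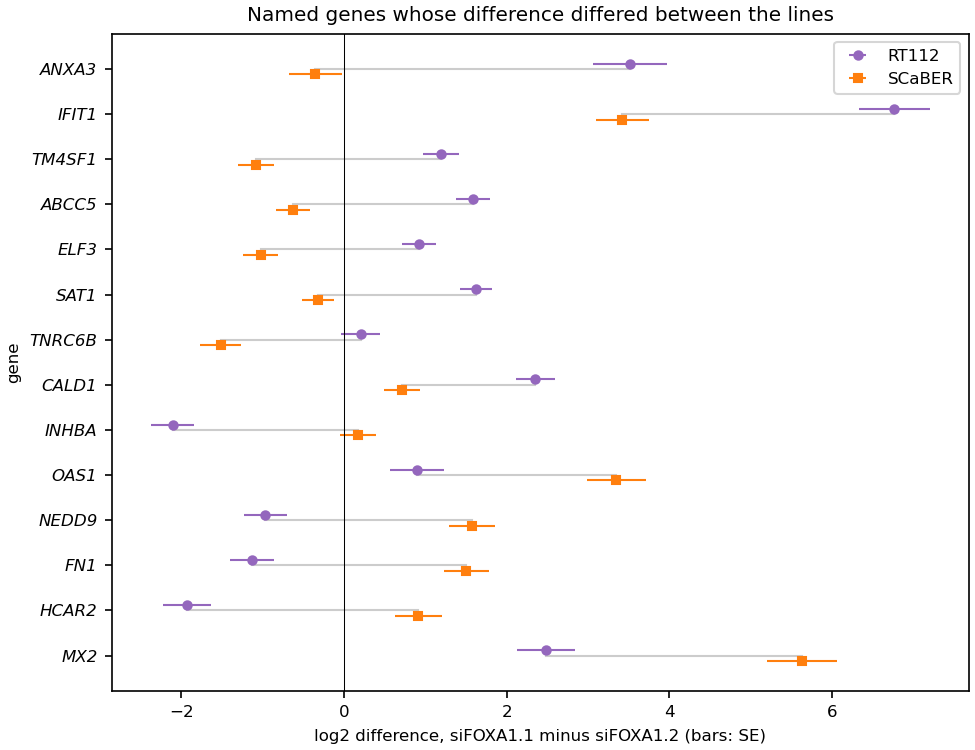
Log2 difference of siFOXA1.1 from siFOXA1.2 for each line, with standard errors, for 14 of the named genes in which the difference between the lines passed the test. TM4SF1 and ELF3 are positive in RT112 and negative in SCaBER, FN1 and NEDD9 the reverse, and IFIT1, OAS1 and MX2 are positive in both.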

How the data were processed

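RNA of RT112 and SCaBER cells was extracted with the RNeasy kit and made into libraries with the Lexogen QuantSeq 3′ mRNA-Seq FWD kit, so 1 read stands for the 3′ end of 1 transcript and levels are not scaled by length. Per the deposited configuration, the authors trimmed reads with TrimGalore 0.6.2 (minimum quality 20, minimum length 10), aligned them to hg38 with STAR 2.6.1a and let STAR count them on GENCODE 29; the study's methods name hg19, so no coordinates are taken from the counts. The authors deposited raw counts for 58721 genes and a table of TPM, whose computation is not given in the sources used here. The labels give the siRNA dose as 10 nM, whereas the methods give a mass.

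The counts were tested with edgeR 4.0.16 (R 4.3.3; TMM, filterByExpr over the 4 groups, quasi-likelihood), with the line as a covariate, over 14051 genes. Per-line values and the difference between the lines came from 1 fit with 4 group means. CPM uses library totals. The control siRNAs were compared in the same way (14036 genes). FOXA1 and the mitochondrial share were compared by exact permutation within lines (36 arrangements). The method was tested on simulated data. Alternatives were DESeq2 1.42.0, limma 3.58.1 on log2(TPM + 1), other scalings, filters and models, the batch as a block and leaving out each library. Floors cover counting error only, while the standard errors of the fit include the spread between these libraries.

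The experiment batch of the labels pairs libraries of the same number. Deviations from the group means correlated at 0.00351 between the siRNAs in RT112 and 0.0435 in SCaBER. Named genes are up to 6 called members of a list with the largest differences that average at least 20 counts and do not overlap in either line, up to 3 called against the list's majority, members with a defining role, the 12 largest differences over all genes each way, up to 10 genes with opposite directions in the lines, and FOXA1, FOXA2, FOXA3, STAT2, IRF9, CD274 and ZBED2. ZBED2 did not pass the test (log2 difference -0.32 ± 0.31, adjusted p = 0.582). Members and lists were chosen with earlier results of these data known. Some items are not reported here. Promoter sequences are from RefSeq, GRCh38.p14.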

Additional observations from a re-analysis of the deposited data

Results flagged for a closer look

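A test of the difference itself called 79 of all genes tested, and 18 of them were among the genes named by the rule above. In these 18 the log2 difference of siFOXA1.1 from siFOXA1.2 was not equal in RT112 and SCaBER. The values given here are RT112 minus SCaBER on the log2 scale, with the adjusted p of edgeR's interaction test over all genes.

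Among interferon genes IFIT1 differed by 3.34 (adjusted p = 0.0138), MX2 by -3.15 (adjusted p = 0.0148) and OAS1 by -2.45 (adjusted p = 0.0370). IFI44L differed by 5.94 (adjusted p = 0.00640) and RSAD2 by 7.89 (adjusted p = 0.00966). FAM20C, a kinase of secreted proteins, differed by -8.15 (adjusted p = 0.0138), with 0 and 0 against 28 and 18.3 CPM in RT112 and 13.6 and 7.81 against 47 and 44.5 CPM in SCaBER. IFI44L and RSAD2 in RT112 siFOXA1.2 and FAM20C in RT112 siFOXA1.1 held at most 3 counts, so their fitted values depend on the prior count.

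TNRC6B, a partner of Argonaute, differed by 1.72 (adjusted p = 0.0407), with 126 and 95.2 against 103 and 105 CPM in RT112 and 27.3 and 23 against 75.3 and 70.5 CPM in SCaBER. CALD1 differed by 1.63 (adjusted p = 0.0370). Genes with opposite directions followed: ABCC5, an export pump, by 2.21 (adjusted p = 0.00966), TM4SF1 by 2.27 (adjusted p = 0.00966), SAT1, a polyamine acetyltransferase, by 1.94 (adjusted p = 0.00966), ELF3 by 1.94 (adjusted p = 0.0117) and ANXA3, an annexin, by 3.87 (adjusted p = 0.00966). The other sign was found in FN1 at -2.63 (adjusted p = 0.00996), NEDD9, a focal adhesion scaffold, at -2.54 (adjusted p = 0.0108), INHBA, the activin subunit, at -2.28 (adjusted p = 0.0111), HCAR2, a metabolite receptor, at -2.84 (adjusted p = 0.00966) and SEMA5A, a semaphorin, at -6.90 (adjusted p = 0.00966). SEMA5A held at most 3 counts in SCaBER siFOXA1.2, and its fitted value depends on the prior count. With 1 RT112 library left out, 1 to 48 genes in all were called in this test.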

How the results depend on the processing

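Of the 168 named genes called, 105 kept their call under all 17 alternatives and none changed direction; 31 lost it with limma on TPM, 9 with the batch as a replicate block, 8 with all 16 libraries in 1 fit, 6 with library totals alone, 2 each with DESeq2 and with the mean of the per-line differences, and 1 each with RLE factors and with no filter. Without 1 RT112 library 34 to 41 lost it, without 1 SCaBER library 9 to 23, and without the mitochondrially encoded genes none. The count for both lines (1492) was 1288 to 2235 over the tools, scalings and models, 1310.0 with the replicate block, and 799 to 1945 with 1 library left out. The RT112 count (1698) was 1915 with the replicate block and 662 to 2586 with 1 library left out. The SCaBER count (432) was 543 with the replicate block, 800.0 with DESeq2, 857 with no filter and 51 to 1048 with 1 library left out. The difference between the lines (79) was 125 with the replicate block, 260.0 with DESeq2, 375 with no filter and 1 to 359 with 1 library left out. The control comparison (113) was 135 with the replicate block, 313 with DESeq2, 320.0 with no filter and 44 to 186 with 1 library left out. Among lists the block left 1 of 3 calls in chemokines and in endoplasmic reticulum stress and 1 of 2 in luminal transcription factors, gave 2 in place of 1 in MHC class I, and moved no other count of calls by over 1.5 times. The FOXA1 difference was -6.98 to -3.58 CPM with 1 library left out and -5.06 on TMM sizes. Except where fewer samples or more genes were tested by construction, the cause was not tested. Depth limited FOXA1 in SCaBER and 104 called genes with an arm at or under 3 counts, and 2 libraries a group limit all per-line values.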
